A study of Oryza sativa with 6 samples.

Results

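Transcripts of haemoglobins and alcohol dehydrogenases were examined in rice roots grown under cadmium, with and without Fo10. They numbered 7 of the 42031 features in the table (40745 of which are rice gene models): 3 haemoglobins and 4 alcohol dehydrogenases. OsHB1 (BGIOSGA012186, gene name HB1) and Adh3 (BGIOSGA034308) were picked because their values were higher with Fo10. The other 5 were taken by their descriptions, which begin with "alcohol dehydrogenase" or contain "symbiotic hemoglobin". Because values of the Fo+Cd against Cd comparison had a part in the choice, the differences of these 7 genes are given as a description, without p-values.

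All 6 libraries came from roots of wild-type Oryza sativa kept in a controlled greenhouse, and all plants received 10 µM Cd. The Cd group (n = 3) had Cd alone, and the Fo+Cd group (n = 3) had Cd with 0.5% Fo10, which the labels do not explain. Roots without Cd were not analysed here, so the levels below say nothing of Cd itself. Whether replicates were separate plants or cultures is not stated in the labels.

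Plant haemoglobins of the non-symbiotic type bind oxygen very tightly and convert nitric oxide to nitrate, and in many plants their transcripts accumulate when oxygen is short. In ethanolic fermentation, pyruvate decarboxylase turns pyruvate into acetaldehyde, and alcohol dehydrogenase reduces this to ethanol while regenerating NAD+ for glycolysis. Class III alcohol dehydrogenase is a different enzyme: it oxidises the glutathione adduct of formaldehyde and also reduces S-nitrosoglutathione, a storage form of nitric oxide.

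Values were the authors' TPM (a transcript abundance scaled for length and library, so that genes can be compared within a library). The listed features summed to 963281 to 966767 TPM per library, and 24954 to 25793 features were above 0. TPM keeps no record of read depth, so the number of reads behind a value is unknown. The 27 shoot markers matched by description (light-harvesting, photosystem and Rubisco small-subunit genes) summed to 24.4 to 26.9 TPM in Cd and 23.6 to 33.2 TPM in Fo+Cd, with 7 of them at 0 in every library. Of the root markers, SHORT-ROOT 1 (BGIOSGA026037), a regulator of root patterning, was at 8.18 to 12.2 TPM over the 6 libraries. SHORT-ROOT 2 (BGIOSGA010480) was lower, at 2.13 to 4.19 TPM, in the range of some single shoot markers. In bulk roots, a change in the number of cells of a type and a change in RNA per cell cannot be told apart.

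Among the haemoglobins, OsHB1, which was picked for its higher values with Fo10, set the Fo+Cd roots apart most clearly. Its level was 13.1, 19.2 and 15.5 TPM in Cd replicates 1, 2 and 3, against 58.8, 35.7 and 63.7 TPM in Fo+Cd replicates 1, 2 and 3. All 3 Fo+Cd libraries lay above all 3 Cd libraries, and the lowest of them (replicate 2) was 1.86 times the highest Cd value. The means were 15.9 ± 3.07 TPM in Cd and 52.7 ± 14.9 TPM in Fo+Cd (SD, n = 3), a ratio of 3.31. On the log2(TPM + 1) scale the difference was 1.64 (SE 0.238), larger than that of 99.2% of the 21166 features tested. Because OsHB1 was picked on these values, this rank is a description only. The description gives OsHB1 as rHb1, a non-symbiotic haemoglobin.

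Of the 3 haemoglobin transcripts, that of rHb2 (BGIOSGA011190) was the most abundant. It was at 69.9, 80.6 and 69.9 TPM in Cd replicates 1 to 3 and at 87.6, 105 and 156 TPM in Fo+Cd replicates 1 to 3. The groups did not overlap, but the gap was narrow, since the lowest Fo+Cd value was 1.09 times the highest Cd value. The means were 73.5 ± 6.17 and 116 ± 35.6 TPM (SD, n = 3), with a log2 difference of 0.61 (SE 0.204). In absolute terms rHb2 gained 42.6 TPM on average and OsHB1 36.8 TPM.

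The gene for rHb3 (BGIOSGA012187) was weakly expressed and showed no separation. It was at 2.47, 1.53 and 4.62 TPM in Cd replicates 1 to 3 and at 4.12, 1.11 and 2.47 TPM in Fo+Cd replicates 1 to 3. The groups overlapped over most of their range, and the log2 difference was -0.13 (SE 0.402). In the RefSeq annotation of japonica rice (assembly ASM3414082v1), rHb1 and rHb3 are listed as direct neighbours, while rHb2 lies elsewhere. A gene named NSHB4 is listed on the other side of rHb3 and was matched by none of the haemoglobins here, so the set may be incomplete. How reads shared by such related genes were assigned is not given in the sources used here, so the values of single members carry that uncertainty.

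**Figure D1:**
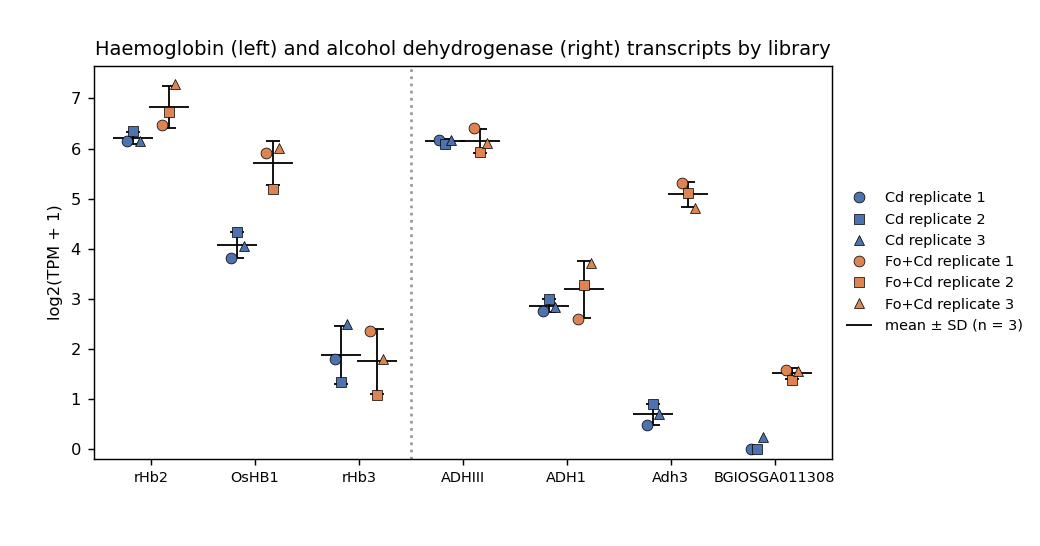
Level of each transcript in each library as log2(TPM + 1), with blue for Cd, orange for Fo+Cd and a marker shape for each replicate number. Horizontal bars are group means and error bars 1 SD (n = 3), left out for BGIOSGA011308 in Cd, which was listed at 0 in 2 libraries. The groups lie apart for rHb2, OsHB1, Adh3 and BGIOSGA011308 and overlap for rHb3, ADHIII and ADH1.

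Among the alcohol dehydrogenases, Adh3 went from barely detected to moderately abundant. It was at 0.38, 0.85 and 0.62 TPM in Cd replicates 1 to 3 and at 38.8, 33.8 and 27.1 TPM in Fo+Cd replicates 1 to 3. Every Fo+Cd library was far above every Cd library, and the lowest of them was 31.8 times the highest Cd value. The means were 0.617 ± 0.235 and 33.2 ± 5.87 TPM (SD, n = 3). Of the tested features, 73.1% had a lower Fo+Cd mean than Adh3 and 0.515% a lower Cd mean. The second share is largely set by the filter. Features under 1 TPM in all Cd libraries were tested only if they were higher in Fo+Cd. The log2 difference of Adh3, 4.40 (SE 0.178), ranked as number 15 from the top among 21166 features. Adh3 too was picked on these values, so this rank is a description only.

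A second, much rarer transcript had a similar form. BGIOSGA011308, described as alcohol dehydrogenase-like 2, was listed at 0 in Cd replicates 1 and 2 and at 0.17 TPM in Cd replicate 3. The Fo+Cd libraries held 1.97, 1.60 and 1.95 TPM in replicate order. The groups did not overlap, although all 6 values were low, and the log2(TPM + 1) difference was 1.43 (SE 0.188). Adh3 and BGIOSGA011308 reached the filter of 1 TPM in at least 3 libraries through the Fo+Cd libraries alone, so they could be tested only because they were higher there. The description of BGIOSGA011308 cites no database; of 226 tested genes described in that way, 91.2% were called over the whole table, so its description is not independent of its difference.

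For the classical fermentation gene ADH1 (BGIOSGA034312) the groups were not separate. It was at 5.69, 6.98 and 6.11 TPM in Cd replicates 1 to 3 and at 4.99, 8.65 and 12.0 TPM in Fo+Cd replicates 1 to 3. Fo+Cd replicate 1 lay below every Cd library and replicates 2 and 3 above every one, so the groups overlapped. The means were 6.26 ± 0.658 and 8.55 ± 3.51 TPM (SD, n = 3), with a log2 difference of 0.33 (SE 0.272).

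The class III gene ADHIII (BGIOSGA009283) held nearly the same mean in both groups. It was at 71.3, 67.1 and 71.3 TPM in Cd replicates 1 to 3 and at 84.5, 60.2 and 68.5 TPM in Fo+Cd replicates 1 to 3. The Fo+Cd libraries fell on both sides of the Cd libraries, and their coefficient of variation was 17.3% against 3.51% in Cd. The means were 69.9 ± 2.45 and 71.1 ± 12.3 TPM (SD, n = 3), and the log2 difference was 0.01 (SE 0.128).

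Over all features, limma (log2(TPM + 1), adjusted p under 0.05) called 518 of 21166, or 2.45%, with 1.72% called higher and 0.723% called lower in Fo+Cd. All 7 haemoglobin and alcohol dehydrogenase genes passed the filter, and 3 of them were called, all higher: OsHB1, Adh3 and BGIOSGA011308. The groups did not overlap in 4 of the 7, these 3 and rHb2, against 21.3% of all tested features, and 11.3% that were higher in this way. Since 2 of the 7 were picked on this comparison, nothing is read from these counts. With 1 library left out at a time, Adh3 was called in each fit, which its choice by these values and its passing of the filter through Fo+Cd alone make no sign of stability. OsHB1 was no longer called in 4 of these fits, when replicate 1 or replicate 3 of either group was left out, while its log2 difference stayed between 1.48 and 1.89. BGIOSGA011308 was no longer called in 2 of them, lacking Cd replicate 1 or Fo+Cd replicate 3, with a log2 difference of at least 1.39 in all. These differences are no sign of stability either. OsHB1 was picked on this comparison, and BGIOSGA011308 passed the filter through Fo+Cd alone.

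**Figure D2:**
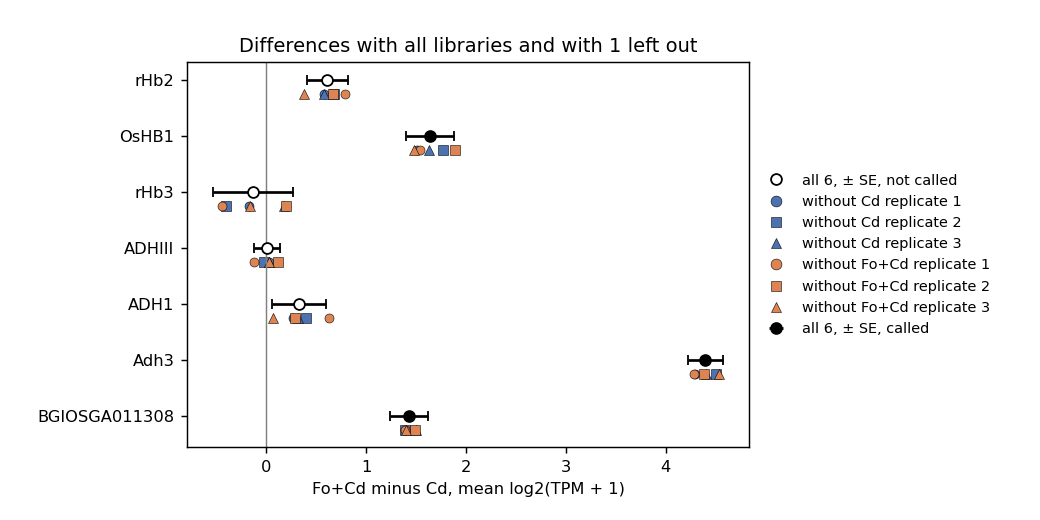
Difference in mean log2(TPM + 1), Fo+Cd minus Cd, for each transcript. Black circles with SE bars use all 6 libraries (filled where limma called the gene), and the small coloured markers below each show the value with 1 library left out; Adh3 stays between 4.28 and 4.53, while rHb3 and ADHIII fall on both sides of 0.

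The order of the transcripts by level was compared within each group. In Cd, rHb2 and ADHIII led and did not differ beyond their spread, with overlapping ranges. OsHB1, ADH1, rHb3, Adh3 and BGIOSGA011308 followed in that order, each with a range entirely below the one before it. In Fo+Cd, rHb2 led alone. ADHIII, OsHB1 and Adh3 came next, and the ranges of ADHIII and OsHB1 and of OsHB1 and Adh3 overlapped. ADH1 was below these, and rHb3 and BGIOSGA011308 were lowest with overlapping ranges. Adh3 thus lay under ADH1 in every Cd library and above it in every Fo+Cd library.

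The make-up of the pool of matched transcripts in each family shows the same values in another way. The 3 haemoglobins summed to 92.3 ± 8.16 TPM in Cd and 171 ± 44.1 TPM in Fo+Cd (SD, n = 3). OsHB1 made up 15.3% to 18.9% of that sum in the Cd libraries and 25.2% to 39.1% in the Fo+Cd libraries, and rHb2 was the larger part in all 6. The 4 alcohol dehydrogenases summed to 76.8 ± 1.73 TPM in Cd and 115 ± 13.7 TPM in Fo+Cd. Adh3 supplied 0.491% to 1.14% of the sum in Cd and 24.7% to 32.4% in Fo+Cd. ADHIII held between 89.5% and 92.2% of the sum in Cd and between 57.8% and 64.9% in Fo+Cd, with similar mean TPM in both groups.

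**Figure D3:**
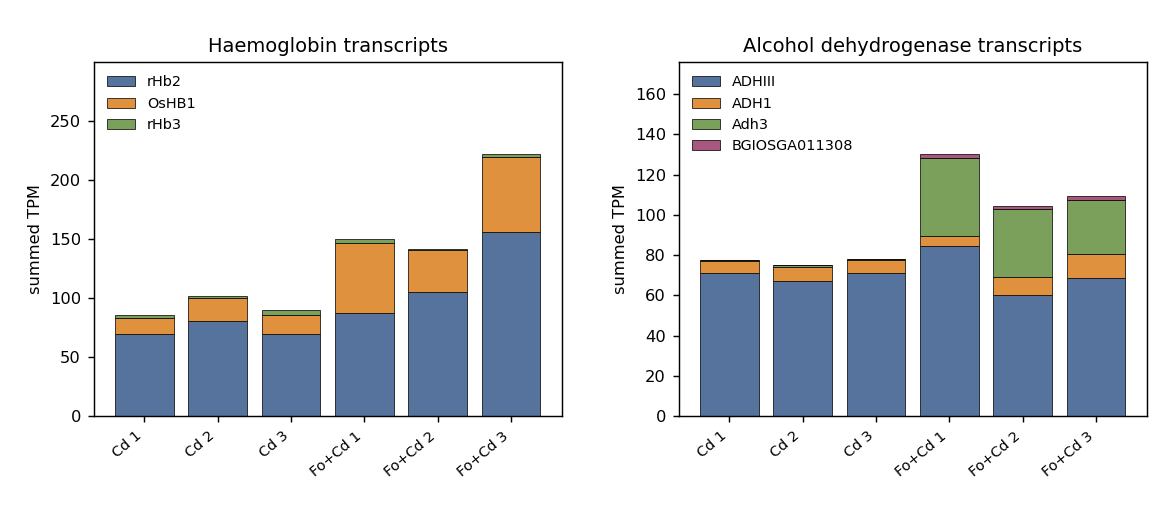
Summed TPM of the 3 haemoglobin transcripts (left) and the 4 alcohol dehydrogenase transcripts (right) in each library, stacked by gene, with bars starting at 0. The haemoglobin sum is highest in Fo+Cd replicate 3 and the alcohol dehydrogenase sum in Fo+Cd replicate 1, while the Cd libraries vary little.

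The Fo+Cd libraries did not rank the genes alike. Fo+Cd replicate 3 was the highest of the 3 for OsHB1, rHb2 and ADH1, and Fo+Cd replicate 1 for Adh3, BGIOSGA011308, ADHIII and rHb3. Adh3 was lowest in Fo+Cd replicate 3, where rHb2 and ADH1 were highest. Over all tested features, replicate 3 was the highest Fo+Cd library for 22.9% and replicate 1 for 42.4%. Within Cd, replicate 2 was highest for OsHB1, rHb2, ADH1 and Adh3.

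The other genes around fermentation, nitric oxide and haem were taken from 8 lists of description patterns. Of the 40745 rice gene models, 35203 carry no description and could be matched only by a gene name. The lists may therefore miss many genes of these pathways, and the counts below hold for the matched genes only. In all 101 genes matched and 86 passed the filter, and limma called 3 of the 86, all higher. Positive differences were seen for 59 of the 86 (68.6%), against 50.4% of all tested features, with a median log2 difference of 0.125 against 0.0025. The groups did not overlap in 28 of them (32.6%, against 21.3% over all features). Of the 82 with a database source in their description 1 was called, and of the 4 without a source 2, both of which passed the filter through the Fo+Cd libraries alone. An unadjusted limma p under 0.05 was found for 24 of the 86 (27.9%). Over all tested features it was found for 15.4%, the share beside which the counts of such genes below are to be read.

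Pyruvate decarboxylase, the step before alcohol dehydrogenase, was represented by 3 gene models, none called by limma. They are described here after their values were seen. PDC2 (BGIOSGA010938) was the abundant one, at 76.9, 65.3 and 83.0 TPM in Cd replicates 1 to 3 and 96.2, 74.9 and 116 TPM in Fo+Cd replicates 1 to 3 (log2 difference 0.33, limma adjusted p = 0.41). The groups overlapped. PDC1 (BGIOSGA020021) was at 1.20, 1.29 and 0.81 TPM in Cd and 1.33, 1.93 and 4.65 TPM in Fo+Cd (log2 difference 0.69, limma adjusted p = 0.381). A further model described as pyruvate decarboxylase 1, without a source (BGIOSGA020022), was at 2.92, 1.57 and 1.63 TPM in Cd and 4.36, 5.46 and 9.56 TPM in Fo+Cd (log2 difference 1.26, limma adjusted p = 0.0861). In both low-level models the groups lay apart, and all 3 models were highest in Fo+Cd replicate 3, as ADH1 was.

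The rest of the ethanol list were aldehyde dehydrogenases, which oxidise acetaldehyde and other aldehydes. None of 6 tested was called, and their log2 differences ran from -0.26 to 0.20. The most abundant, methylmalonate-semialdehyde dehydrogenase (BGIOSGA025301), an enzyme of valine breakdown, was at 237 ± 16.6 TPM in Cd and 206 ± 15.2 TPM in Fo+Cd (SD, n = 3; limma adjusted p = 0.381). In the ethanol list as a whole, 0 of 9 were called and 1 had an unadjusted limma p under 0.05.

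Lactate dehydrogenase, which regenerates NAD+ by making lactate, and glutamate decarboxylase, which makes GABA, gave 0 calls among 7 tested genes, 2 of them with an unadjusted limma p under 0.05. These 2, described after their values were seen, had groups that lay apart. An L-lactate dehydrogenase gene (BGIOSGA022103) was at 6.26, 5.77 and 5.84 TPM in Cd replicates 1 to 3 and at 11.7, 26.8 and 32.6 TPM in Fo+Cd replicates 1 to 3 (log2 difference 1.71, SE 0.348, limma adjusted p = 0.0671). The tight Cd values contrast with a wide spread in Fo+Cd. Another tested entry (BGIOSGA024772) is described as a mitochondrial D-lactate dehydrogenase of the cytochrome type, not an enzyme that makes lactate. Its log2 difference was 0.06, and it was not called. A glutamate decarboxylase gene (BGIOSGA012193) was at 40.2 ± 9.20 and 70.7 ± 14.5 TPM (SD, n = 3; limma adjusted p = 0.115). The most abundant glutamate decarboxylase (BGIOSGA013470) was at 297 ± 15.4 and 289 ± 13.8 TPM (limma adjusted p = 0.879).

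Sucrose breakdown and glycolysis, which feed pyruvate to fermentation, held 50 tested genes, of which 38 had a positive difference and 1 was called. The called gene (BGIOSGA033987) entered the list by the word enolase but is described as an enolase-phosphatase of methionine salvage, not a glycolytic enzyme. It rose from 112 ± 7.40 to 165 ± 2.13 TPM (SD, n = 3; log2 difference 0.55, SE 0.0832, limma adjusted p = 0.0203). It missed the threshold with Cd replicate 3 left out (limma adjusted p = 0.107), and also with replicate 2 or 3 of Fo+Cd left out (limma adjusted p of 0.0521 and 0.101). All 9 tested pyruvate kinases, which make pyruvate, had positive but small differences (log2 0.04 to 0.27), and none was called. In 4 of the 9 the groups lay apart with Fo+Cd higher, against 11.3% of all tested features. Of the phosphofructokinase and fructokinase-like genes, 8 of 10 were positive. The widest gap among these, named after its value was seen, belonged to an ATP-dependent 6-phosphofructokinase (BGIOSGA019317), at 43.0 ± 9.94 and 88.7 ± 18.5 TPM (log2 difference 1.03, limma adjusted p = 0.0544). The gene of the list with the highest mean over all 6 libraries, a glyceraldehyde-3-phosphate dehydrogenase (BGIOSGA008564), was at 1113 ± 13.9 and 1523 ± 314 TPM (limma adjusted p = 0.223); in Cd alone another such gene, BGIOSGA016636, had the higher mean (1232 TPM). Another of its entries is a methyltransferase that acts on aldolase, which was not called.

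**Figure D4:**
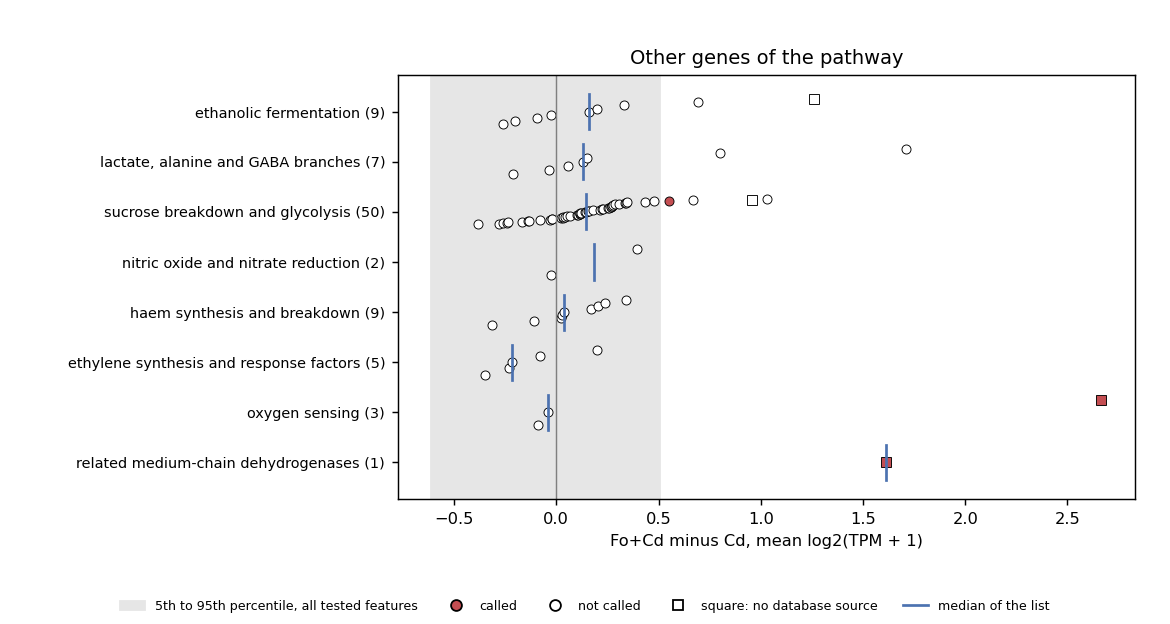
Difference in mean log2(TPM + 1), Fo+Cd minus Cd, for each tested gene of the 8 pathway lists (number tested in brackets), with called genes in red, genes described without a database source as squares and list medians as blue lines. The grey band (-0.61 to 0.51) holds all tested features but the lowest and highest twentieths; most list genes lie within it, and 3 are called, all higher.

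The partners of haemoglobin in nitric oxide and haem metabolism gave no calls. A monodehydroascorbate reductase gene (BGIOSGA031289), of the enzyme family that recycles ascorbate, was at 128 ± 3.33 and 126 ± 12.7 TPM (SD, n = 3; limma adjusted p = 0.933). The 1 nitrate reductase gene matched was near the filter, at 0.4 to 2.03 TPM over the 6 libraries, and neither of these 2 genes had an unadjusted limma p under 0.05. Of 9 tested genes of haem synthesis and breakdown, 7 had a positive difference, 1 had an unadjusted limma p under 0.05 and 0 were called. That gene, delta-aminolevulinic acid dehydratase (BGIOSGA020574), which makes porphobilinogen for haem and chlorophyll, was at 52.0, 60.6 and 54.9 TPM in Cd replicates 1 to 3 and 74.5, 67.4 and 70.6 TPM in Fo+Cd replicates 1 to 3. Its groups lay apart, with an adjusted p in limma of 0.125. Another entry of the list (BGIOSGA006649) matched by the word ferrochelatase but is described as a sirohydrochlorin ferrochelatase, not an enzyme of haem synthesis. It is among the positive ones (log2 difference 0.24) and was not called.

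Ethylene and oxygen sensing control many low-oxygen genes in plants, and the lists named for them gave 1 call among 8 tested genes. The called gene entered by the pattern prolyl 4-hydroxylase. Neither gene matched by that pattern is described as an oxygen sensor, so the call is not one of a known oxygen-sensing gene. Of 5 tested genes of ethylene synthesis and response 1 had a positive difference, 1 had an unadjusted limma p under 0.05 and 0 were called. The gene with that p, named after its value was seen, is described as 1-aminocyclopropane-1-carboxylate (ACC) oxidase 1 (BGIOSGA020995). It was lower in Fo+Cd, with groups apart (17.86 TPM in Cd, 13.95 TPM in Fo+Cd, log2 difference -0.35, limma adjusted p = 0.308). The positive gene (BGIOSGA005518) was the most abundant, at 33.3 ± 3.82 and 38.2 ± 0.875 TPM (SD, n = 3, limma adjusted p = 0.408). Its description, a bifunctional D-cysteine desulfhydrase and ACC deaminase, names no step of ethylene synthesis. The plant cysteine oxidase gene matched, of the family that marks ERF-VII factors for breakdown in the presence of oxygen, had a log2 difference of -0.09 and was not called. Prolyl 4-hydroxylase 1 (BGIOSGA016157) was at 54.2 ± 2.14 and 52.7 ± 2.36 TPM (limma adjusted p = 0.857). A gene described, without a source, as similar to a prolyl 4-hydroxylase subunit (BGIOSGA009618) was listed at 0 in all 3 Cd libraries and at 5.18, 2.44 and 11.0 TPM in Fo+Cd replicates 1 to 3. This was the 1 call, and it was lost whenever a Cd library or Fo+Cd replicate 1 was left out. The gene passed the filter through the Fo+Cd libraries alone and has a description of the kind mostly found on called genes, so no support is taken from that call.

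One gene of the list of related dehydrogenases matched. CAD7 (BGIOSGA017101), described without a source as a cinnamyl alcohol dehydrogenase, an enzyme family that makes lignin alcohols, was at 0.7, 0.35 and 0.65 TPM in Cd replicates 1 to 3 and at 2.92, 4.56 and 3.95 TPM in Fo+Cd replicates 1 to 3. The groups did not overlap, and the log2 difference was 1.61 (SE 0.2). Like Adh3 and BGIOSGA011308, it was under 1 TPM in all Cd libraries and could be tested only because it was higher in Fo+Cd, and its description is of the kind without a source. Its call, which was lost without Fo+Cd replicate 3, is therefore given as a description.

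The described genes whose pattern was most like those of the 2 leading genes were ranked by Pearson's r of log2(TPM + 1) over the 6 libraries, among 4507 candidates. These libraries fall into 2 groups, so a high r partly restates a difference between groups. Closest to Adh3 were a jasmonate O-methyltransferase gene (BGIOSGA021359, r = 0.9995), which went from 0.4 ± 0.159 to 19.0 ± 2.19 TPM, and the NAC transcription factor gene ONAC066 (BGIOSGA013656, r = 0.9995), from 2.29 ± 0.362 to 13.1 ± 1.10 TPM. A fatty acyl-CoA reductase gene (BGIOSGA024420, r = 0.999), CAX1c (BGIOSGA008054, r = 0.9985) and a gene for a hypothetical protein (BGIOSGA037564, r = 0.9984) followed. All 5 were called higher by limma, against 1.72% of all tested features, but a ranking by likeness to Adh3 largely fixes this in advance. The jasmonate O-methyltransferase gene and CAX1c had Cd means under 1 TPM (0.4 and 0.84 TPM) and needed the Fo+Cd libraries to pass the filter. All but the reductase, 4 of the 5, are described without a source.

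Closest to OsHB1 was a different set, and none of its 5 genes was called. A GrpE homolog (BGIOSGA030072, r = 0.9948), a co-chaperone of Hsp70, was at 20.4 ± 1.21 and 28.6 ± 1.82 TPM (SD, n = 3). The copper-transporting ATPase PAA1 (BGIOSGA028879, r = 0.9925) was at 28.6 ± 0.397 and 30.9 ± 0.523 TPM. COX15 (BGIOSGA028916, r = 0.9912), needed to make the haem of cytochrome c oxidase, was at 13.8 ± 1.14 and 19.3 ± 2.17 TPM. A FRIGIDA-like gene (BGIOSGA024736, r = 0.99) was at 75.4 ± 1.45 and 81.0 ± 1.53 TPM. HSP81-1 (BGIOSGA026730, r = 0.9892), a chaperone of the Hsp90 family, was at 699 ± 50.9 and 960 ± 61.7 TPM. Their order over the libraries resembled that of OsHB1, while the sizes of their differences were smaller.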

How the data were processed

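RNA sequencing of 6 root libraries (3 Cd, 3 Fo+Cd) was analysed from one table of TPM values that the authors deposited; the unit was recognised from the values, and no source used here names the aligner, quantifier or genome build. Per the labels' protocols, RNA was extracted with TRIzol and made into stranded mRNA libraries. The authors' group means (within 0.000001 TPM of the mean of their libraries) were not used. Values were transformed to log2(TPM + 1), which understates changes of low genes, and only features reaching 1 TPM in 3 or more libraries were tested. Groups were compared with limma 3.58.1 in R 4.3.3 (trend and robust settings, no covariate), with Benjamini-Hochberg adjustment over all 21166 features and a call at adjusted p under 0.05. The fit was also run on simulated data with independent noise, in which the changed genes were of middle level in Cd. Genes near 0 in Cd, such as Adh3, were not among them, so that run says nothing of such genes. The labels do not say that replicates were separate cultures, so p-values reflect only sample-to-sample spread, possibly technical.

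The 7 genes and the lists were chosen with earlier results of these data known. Lists matched patterns in descriptions or gene names. Named from each list were called genes (up to 4, by smallest p) and the most abundant uncalled gene; others are marked as chosen after their values were seen. The root marker pattern RCc3 matched only an unrelated DNA repair gene, which was ignored. Of 6 members searched by name in RefSeq, 4 matched. Alternatives were a pseudocount of 0.1, no filter, a filter at 5 TPM, quantile normalization, limma without trend and robust, a replicate block, and each library left out with the same features kept. Python 3.11.15, pandas 2.3.3, numpy 2.4.6 and matplotlib 3.10.9 handled tables and figures.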

Additional observations from a re-analysis of the deposited data

How the results depend on the processing

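The number of features called was 518 with all libraries and 240 to 735 with 1 left out: 310, 735 and 252 without Cd replicates 1, 2 and 3, and 336, 316 and 240 without Fo+Cd replicates 1, 2 and 3. Members called ranged from 1 to 3 in those fits, and pathway genes called from 1 to 3 (1 without Cd replicate 3 or Fo+Cd replicate 3). Leaving out libraries moved the log2 differences of rHb2 (0.38 to 0.79), ADH1 (0.07 to 0.63), ADHIII (-0.12 to 0.12) and rHb3 (-0.44 to 0.20). A pseudocount of 0.1 gave log2 differences of 5.58 for Adh3 and 3.79 for BGIOSGA011308, since it compresses values near 0 less. Apart from the replicate block given below, the other settings left 2 or 3 members called. The stricter filter removed rHb3 and BGIOSGA011308. Whether replicate numbers pair the libraries could not be decided from 3 libraries per group. Deviations from group means correlated at -0.033, 0.085 and 0.073 for equal numbers 1, 2 and 3, and at -0.12 to 0.069 for unequal ones. Replicates 2 and 3 of both groups correlated best with their own number, and replicates 1 did not. With the replicate block limma called 353 features, 1 member (Adh3) and 0 pathway genes (21 with an unadjusted p under 0.05). Of the 10 pathway genes named by rule, the ones compared here, 2 uncalled ones changed sign: BGIOSGA013470 (-0.073 to 0.0011 over the libraries left out, positive without Cd replicate 2) and BGIOSGA031289 (-0.106 to 0.021; 0.021 and 0.012 without Fo+Cd replicates 2 and 3). The cause was not tested. Depth is unknown, so the error of values near 0 could not be computed.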
